A study of Mus musculus with 14 samples.

Results

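The adrenergic receptors considered here are 8 genes: Adrb1 and Adrb3 of the beta class, Adra1a, Adra1b and Adra1d of the alpha-1 class, and Adra2a, Adra2b and Adra2c of the alpha-2 class, of 21887 protein-coding mouse genes. They were taken as a list by name, and Adrb1 was also selected on its strong difference in H3K9me2, so that difference is described below and not tested. Regions were assigned to a gene when they overlapped its body or the 10000 bp on either side, which gave 155 regions: 92 of 388424 in the G9a table, 23 of 245088 in the H3K9me2 table and 40 of 552542 in the H3K27me3 table. The study used chromatin immunoprecipitation and sequencing on cardiomyocyte-enriched cells from hearts of C57BL/6J mice, which had either been under transverse aortic constriction for 1 week (the aorta is narrowed by surgery, which loads the left ventricle) or, labelled sham, had no treatment. Each of the antibodies, against the histone methyltransferase G9a, its product H3K9me2 and the Polycomb mark H3K27me3, was used on what the design text calls biological replicates, 2 per condition, and there was 1 input library per condition. Neither age nor sex is given in the labels, and whether a replicate is 1 heart or a pool is not given either.

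Noradrenaline from sympathetic nerves and adrenaline from the adrenal gland act on these receptors. The beta-1 receptor is the main one of the cardiomyocyte, where it couples to the stimulatory G protein, raises cyclic AMP and increases rate and force; its loss from the cell surface is a known feature of the overloaded and failing heart. Alpha-1 receptors couple to the Gq class and phospholipase C, and alpha-2 receptors, known best as brakes on transmitter release from nerve endings, couple to inhibitory G proteins. H3K9me2 and H3K27me3 are both marks of silent genes; H3K27me3 in particular forms broad domains over developmental and tissue-specific genes that a cell does not use.

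The 300 bases around the annotated starts of 4 receptor genes are shown because listed regions lay across them: a G9a region over the whole of the Adrb1 window, and H3K27me3 regions over the whole of the 3 alpha-2 windows. They come from RefSeq (GRCm38.p6, that is mm10) and run from 250 bases before the start to 50 after it; capitals mark each CpG dinucleotide, the site of DNA methylation.
Adrb1, chr19:56721867-56722166, plus strand: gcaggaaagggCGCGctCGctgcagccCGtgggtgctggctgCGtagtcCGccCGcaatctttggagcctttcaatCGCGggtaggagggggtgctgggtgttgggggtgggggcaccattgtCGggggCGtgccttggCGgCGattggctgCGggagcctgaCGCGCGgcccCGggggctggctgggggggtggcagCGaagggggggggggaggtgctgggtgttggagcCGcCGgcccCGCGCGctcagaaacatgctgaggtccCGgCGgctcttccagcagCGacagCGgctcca
Adra2a, chr19:54045009-54045308, plus strand: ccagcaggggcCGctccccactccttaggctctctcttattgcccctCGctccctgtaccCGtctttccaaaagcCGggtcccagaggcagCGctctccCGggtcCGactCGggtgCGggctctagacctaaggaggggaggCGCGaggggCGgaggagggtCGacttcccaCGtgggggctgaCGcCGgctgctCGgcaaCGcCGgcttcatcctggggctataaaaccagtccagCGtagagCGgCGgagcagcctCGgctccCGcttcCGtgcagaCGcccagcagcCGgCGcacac
Adra2b, chr2:127362929-127363228, plus strand: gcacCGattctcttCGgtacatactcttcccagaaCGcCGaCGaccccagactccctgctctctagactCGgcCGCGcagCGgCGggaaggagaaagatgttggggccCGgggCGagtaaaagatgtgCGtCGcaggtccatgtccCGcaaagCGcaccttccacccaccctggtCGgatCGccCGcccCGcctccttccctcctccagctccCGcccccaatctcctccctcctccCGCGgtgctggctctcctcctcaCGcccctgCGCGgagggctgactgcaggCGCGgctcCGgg
Adra2c, chr5:35278316-35278615, plus strand: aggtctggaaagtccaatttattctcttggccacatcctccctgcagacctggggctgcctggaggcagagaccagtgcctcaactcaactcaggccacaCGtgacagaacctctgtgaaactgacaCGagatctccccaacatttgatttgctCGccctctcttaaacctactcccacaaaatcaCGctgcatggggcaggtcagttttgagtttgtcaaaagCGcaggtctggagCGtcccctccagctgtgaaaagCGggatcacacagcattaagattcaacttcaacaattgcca

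The Adrb1, Adra2a and Adra2b windows held 28, 28 and 29 CpG dinucleotides, against a median of 7 over the 32851 RefSeq windows of the same length, and 72.3%, 68.7% and 68.0% of their bases were G or C, against a median of 52.7%. The Adra2c window held 7 CpG and 51.3% G or C, so the broad H3K27me3 described below covered starts of both kinds. TGACG, the core of the cyclic AMP response element, was present on either strand once at Adrb1, where it began 90 bases before the start, and once at Adra2a, 69 bases before it; 20.8% of all windows hold it. The full element TGACGTCA, which contains that core and occurs in 1.79% of windows, was in none of the 4. GGGCGG, the GC box, was present once at Adrb1 and Adra2a and at 2 places at Adra2b (35.7% of windows), TATAAA only at Adra2a, 29 bases before the start (13.6%), and the E-box CANNTG once at Adra2a and at 4 places at Adra2c (72.3%). Adra1b has 2 annotated starts in the same RefSeq set, and no listed region overlapped either window. Adrb3, Adra1a and Adra1d were matched to no window.

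Each line of the authors' deposited tables gives 4 whole-number values for a region, written as 2 pairs, and a -log10 p; the tables hold regions that the authors had already selected for a difference, with p up to 0.01. Where no region is listed, the target of the antibody may be absent or alike in both pairs. The pairs are unnamed. Which pair is sham cannot be read from the tables, although their titles mention it first. Directions are therefore stated by pair. A log2 difference is that of the pair means plus 1, second over first. The values are not sequencing depths, and the depth is unknown. Over whole tables, 44.5% of G9a regions, 44.4% of H3K9me2 regions and 42.7% of H3K27me3 regions were higher in the second pair. In the G9a table library 1 of the second pair stood apart, with 9.34% of its values at 0 against 0.163% to 1.40% in the other 3, and G9a differences of the leading regions and medians are given with and without it where it moves them. Within bulk chromatin, a mark on more cells and more of the mark in each cell cannot be told apart.

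By gene, G9a regions higher in the second pair were listed at 8 of 8 receptor genes (background 73.2% of protein-coding genes) and regions higher in the first pair at 7 of 8 (89.1%), Adrb1 being the one without. H3K9me2 regions were listed at 4 of 8 genes in each direction (52% for the second pair and 64.7% for the first). For H3K27me3, 6 of 8 had a second-pair region (69.7%) and 5 of 8 a first-pair region (79.9%). These shares are near the background, and the windows of Adra1a and Adra1b are far longer than the others, so the counts show nothing particular to the receptors.

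By region, both values of the higher pair lay above both of the other in 49 of 92 G9a regions at the receptors (61.3% of all G9a regions), in 14 of 23 H3K9me2 regions (67.9%) and in 25 of 40 H3K27me3 regions (69.2%). The median log2 difference of the receptor regions was -0.57 for G9a against -0.67 over the whole table, -0.63 against -0.66 for H3K9me2, and 0.44 against -0.58 for H3K27me3. These medians lie between regions of opposite direction and are not stable: without library 1 of the second pair they were 0.05 against -0.06 for G9a, -0.10 against -0.31 for H3K9me2 and -0.16 against -0.53 for H3K27me3. Without library 2 of the second pair, the receptor medians were -1.09, 0.04 and 0.49. Without library 1 or 2 of the first pair they were -0.32 and -0.04 for G9a, -0.13 and -0.20 for H3K9me2, and 0.41 and 0.18 for H3K27me3. With 2 libraries per pair, an exact two-sided permutation test of 1 region cannot go below 0.333. Fitted over all regions of a table with limma, 0 regions were called at a Benjamini-Hochberg adjusted p under 0.05 in each of the 3 tables (0% each), at the receptors or elsewhere; at an unadjusted p under 0.05 there were 0 of 92 at the receptors for G9a (background 3.94%), 1 of 23 for H3K9me2 (8.75%) and 1 of 40 for H3K27me3 (12.3%). The lowest adjusted p of a receptor region was 0.461 for G9a, 0.389 for H3K9me2 and 0.361 for H3K27me3. The 1 for H3K9me2 is the Adrb1 region itself, on which that gene was selected, and the 1 for H3K27me3 is a 450 bp region beyond Adra1a with 11 and 38 against 86 and 74 per the authors' deposited table. The differences below are therefore those called by the authors' deposited p, and none was called by limma.

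**Figure D1:**
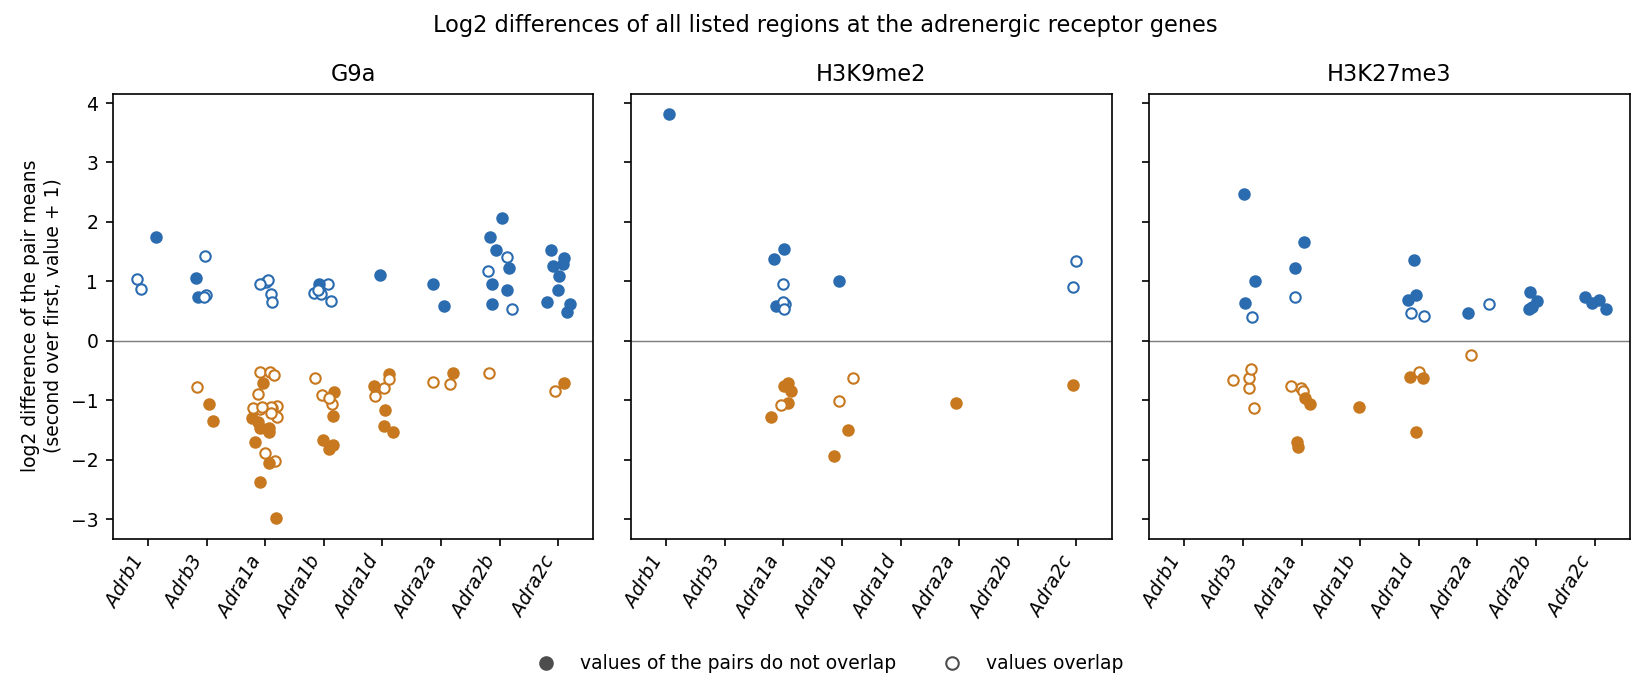
Log2 differences of the pair means (second over first, values plus 1; y axis) for all 155 listed regions at the 8 receptor genes (x axis), in 1 panel per antibody; blue regions were higher in the second pair and orange ones in the first, and filled points are regions whose pairs do not overlap. Adrb1 has the highest H3K9me2 point, at 3.82, G9a points at Adra1a lie mostly below 0, and all H3K27me3 points at Adra2b and Adra2c lie above 0.

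Adrb1, the main beta receptor of the cardiomyocyte and a gene with no intron (gene 11554, chromosome 19, 56722117 to 56725150, mm10), had 1 H3K9me2 region, at 56722251 to 56724050, which began 134 bp after the annotated start and lay wholly inside the gene. Its values per the authors' deposited table were 45 and 123 in the first pair, with 1747 and 650 in the second, and its -log10 p was 248. The pairs did not overlap, but the libraries of the second pair were far apart. The log2 difference was 3.82, and 11 of the 245088 H3K9me2 regions had a smaller deposited p, while 287 had a larger log2 difference. Per kb, library 1 of the second pair had 971 here, and 33 regions of the table had more in that library; library 2 of the second pair had 361, and 929 regions had more. In contrast, both first-pair libraries lay below the table medians of 141 and 136.

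A G9a region covered the same stretch of Adrb1 and the whole promoter window printed above. It ran from 56721801 to 56724150, from 316 bp before the start, and shared all 1800 bp of the H3K9me2 region. Its values per the authors' deposited table were 154 and 950 in the first pair, with 1799 and 1912 in the second, and its -log10 p was 158. Library 1 of the first pair was low and library 2 of the same pair was intermediate, and both libraries of the second pair were higher than either. The log2 difference was 1.75. By limma it was 2.27 ± 1.11 (SE, on the log2 scale), with an unadjusted p of 0.0995 and an adjusted p of 0.461. It was thus not called. Per kb, the second-pair libraries had 766 and 814, against table medians of 90.0 and 144, and 37 and 15 of all G9a regions had more in the same library. Library 1 of the second pair, the one with many zeros, was thus not low at this place, and without it the second pair was still higher. The log2 difference was 3.58 without library 2 of the first pair and 0.97 without library 1 of that pair.

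The other 2 G9a regions near Adrb1 were small and their pairs overlapped. They began 2916 and 1766 bp before the start, with 0 and 109 against 104 and 122, and 62 and 10 against 23 and 110, per the authors' deposited table. No H3K27me3 region was listed in the window of Adrb1. The nearest ones, both higher in the first pair, lay 77967 bp and 99101 bp from the gene. Just outside the 10000 bp limit, the nearest G9a regions lay 12217 and 17301 bp away with 87 and 231 against 26 and 151, and 69 and 92 against 6 and 73, per the authors' deposited table; the nearest H3K9me2 region lay 22151 bp away with 29 and 32 against 61 and 72.

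**Figure D2:**
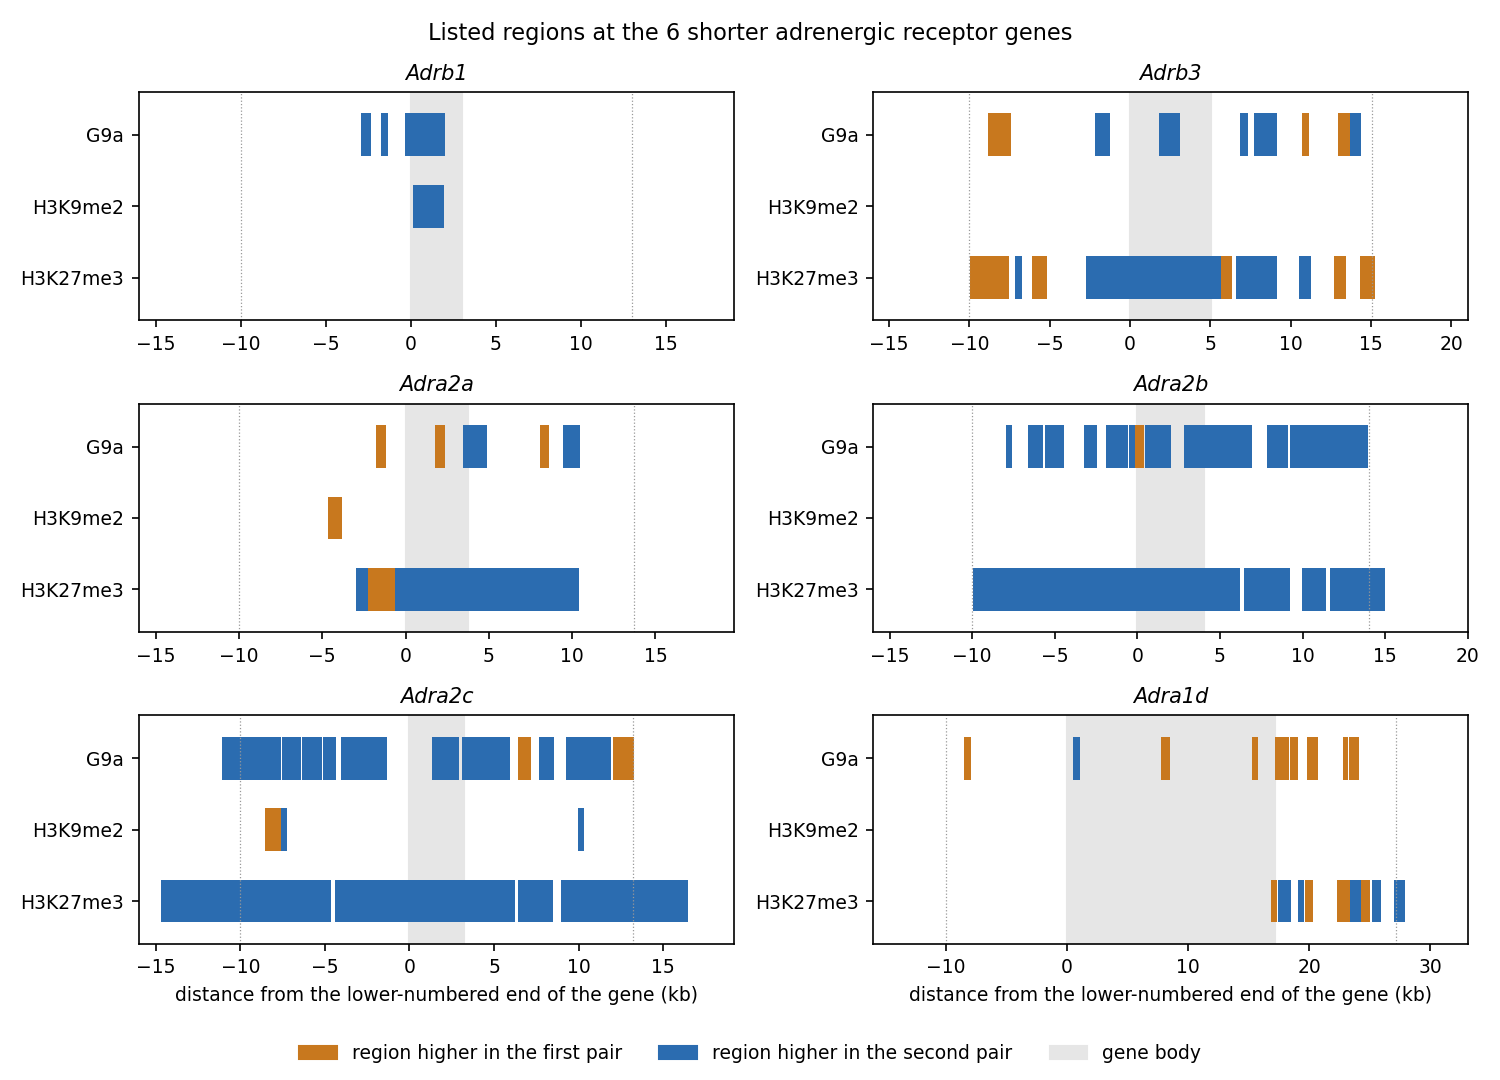
Position of all listed regions at the 6 shorter receptor genes, in kb from the lower-numbered end of the gene (x axis), with a row for each antibody; grey marks the gene body and dotted lines the 10 kb limits. At Adrb1 a single blue block in the G9a and H3K9me2 rows lies over the gene with nothing in the H3K27me3 row, while blue H3K27me3 blocks lie across Adrb3, Adra2a, Adra2b and Adra2c.

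Adrb3, the beta receptor known best from fat tissue (gene 11556, chromosome 8, 27225776 to 27230845), had no listed H3K9me2 region. Its gene body lay inside 1 H3K27me3 region of 8400 bp (27223051 to 27231450), listed at 2980 and 2552 in the first pair, with 4492 and 4048 in the second, per the authors' deposited table; the log2 difference was 0.63. The pairs did not overlap, and the libraries within a pair were close. A second H3K27me3 region beyond the gene, of 2600 bp, had 653 and 341 against 1061 and 925 per the authors' deposited table (log2 1.00). Of the 9 H3K27me3 regions in the window, 4 were higher in the second pair and 5, all in the flanks, in the first, and the pairs overlapped in each of the latter; without library 1 of the first pair, 3 of these 5 turned round. The window also reaches Got1l1, a neighbouring gene on the lower-numbered side, so regions on that side belong as much to it.

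For G9a, Adrb3 had 5 second-pair and 3 first-pair regions. The one inside the gene had 115 and 137 against 105 and 576 per the authors' deposited table, so its difference (log2 1.43) rests on library 2 of the second pair; it was -0.26 without that library and 2.18 without library 1. A region beginning 2175 bp before the lower end had 11 and 162 against 182 and 178 there, with library 1 of the first pair low. The clearest first-pair region lay farther out, with 238 and 281 against 81 and 167 per the authors' deposited table (log2 -1.06). Of the second-pair regions, 4 of 5 overlapped an H3K27me3 region higher in the same pair.

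The 3 alpha-2 genes, each with a body of 3198 to 4043 bp, all lay within broad H3K27me3 regions that were higher in the second pair. At Adra2b (gene 11552, chromosome 2, 127363179 to 127367221) the region was 16150 bp long (127353251 to 127369400) and had 5872 and 4829 in the first pair, with 9623 and 9257 in the second, per the authors' deposited table, with a log2 difference of 0.82 and a -log10 p of 247. At Adra2c (gene 11553, chromosome 5, 35278566 to 35281763) the region over the gene was 10650 bp long (35274151 to 35284800) and had 3799 and 3371 against 6398 and 5551 per the authors' deposited table; the log2 difference was 0.74. At Adra2a (gene 11551, chromosome 19, 54045259 to 54048982) it was 11000 bp long (54044651 to 54055650) and had 5105 and 4738 against 7233 and 6377 there; the log2 difference was 0.47. In all 3 the pairs did not overlap, as in 99.3% of all H3K27me3 regions of 5000 bp or more.

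Further regions continued these domains at Adra2b and Adra2c and not at Adra2a. The Adra2b window overlapped 4 H3K27me3 regions of 23750 bp in all, and the Adra2c window 4 of 30250 bp. These lengths, and the sums that follow, include sequence beyond the windows. All these regions were higher in the second pair (42.7% of all H3K27me3 regions). None had overlapping pairs (no overlap in 69.2% of all). Their values summed per the authors' deposited table to 7773 and 6516 against 12672 and 11648 at Adra2b, and to 9799 and 9268 against 16000 and 14146 at Adra2c. At Adra2a the domain was flanked, 609 bp before the start, by a 1650 bp first-pair region (627 and 617 against 619 and 433 per the authors' deposited table, log2 -0.24) with overlapping pairs, and then by a 700 bp region with 76 and 118 against 221 and 76. The window of Adra2b also reaches Astl, a neighbouring gene whose end lies under the same long region.

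The lengths of these regions were unusual for the table and their direction was not. Of all H3K27me3 regions 0.0494% were as long as that of Adra2b, 0.172% as that of Adra2a, 0.189% as that over Adra2c and 0.366% as that of Adrb3, against a median length of 800 bp. Regions of 5000 bp or more numbered 7247, of which 99.6% were higher in the second pair, with a median log2 difference of 0.76 and quartiles of 0.65 and 0.88. All 6 such regions at the receptors were higher in the second pair, with log2 differences of 0.47 to 0.82; those at Adra2a (0.47) and Adrb3 (0.63) and the 10000 bp one at Adra2c (0.54) were below the lower quartile. The limma differences for the 4 regions over the gene bodies were 0.83 ± 0.47 at Adra2b, 0.74 ± 0.47 at Adra2c, 0.63 ± 0.47 at Adrb3 and 0.47 ± 0.46 at Adra2a (SE), with adjusted p of 0.361, 0.362, 0.371 and 0.429. With library values scaled to equal medians these 4 log2 differences were 1.12, 1.03, 0.92 and 0.76.

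**Figure D3:**
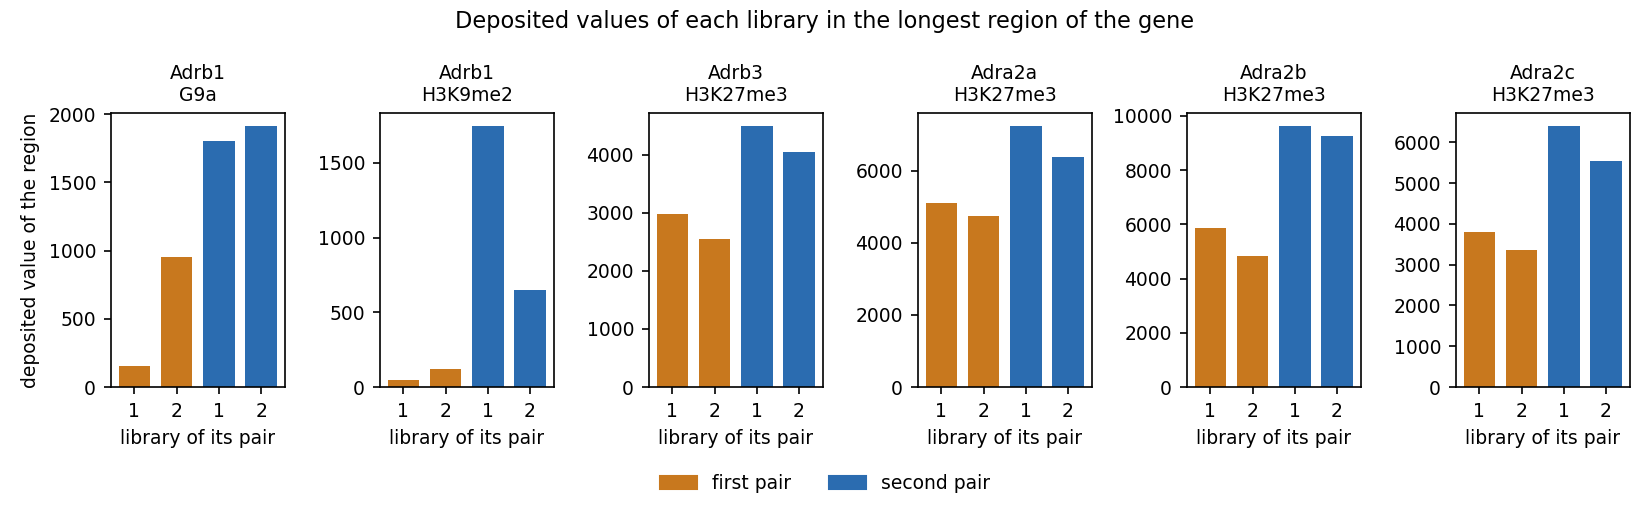
Deposited values (y axis, from 0, its own scale in each panel) of the 4 libraries in the longest listed region of Adrb1 for G9a and H3K9me2 and of Adrb3, Adra2a, Adra2b and Adra2c for H3K27me3; orange bars are the libraries of the first pair and blue bars those of the second. In each panel both blue bars exceed both orange ones; the libraries of a pair are close for H3K27me3 and far apart in the first pair for G9a (154 and 950) and in the second for H3K9me2 (1747 and 650) at Adrb1.

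G9a followed the same direction as H3K27me3 over Adra2b and Adra2c. At Adra2c 9 of 11 G9a regions were higher in the second pair (44.5% of all G9a regions). In all 9 the pairs did not overlap (61.3% of all G9a regions). These 9 covered 17300 bp, with sums of 2080 and 2181 against 5094 and 4337 per the authors' deposited table. The one over the 3' part of the gene had 137 and 201 against 249 and 731 (log2 1.53), and the one that began 4065 bp before the start 285 and 307 against 942 and 610 (log2 1.39), per the authors' deposited table. These directions held with each of the 4 libraries left out in turn. At Adra2b 10 of 11 were higher in the second pair (again 44.5% of all), 7 of these 10 without overlap (61.3% of all). The 10 covered 16500 bp, with sums of 1281 and 2131 against 4458 and 3628 per the authors' deposited table.

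The strongest G9a region of the Adra2b window began 9272 bp after the start of the gene, beyond its end, and had 346 and 579 against 1922 and 1167 per the authors' deposited table (log2 1.74, -log10 p 131). Over the start itself 2 short adjoining regions went opposite ways: 27 and 20 against 59 and 80 just before it, and 103 and 129 against 52 and 107 across it, with overlapping pairs in the latter, per the authors' deposited table. Every second-pair G9a region at Adra2b and Adra2c overlapped an H3K27me3 region higher in the same pair, with 15300 and 17000 bp shared. H3K27me3 regions covered nearly all of these 2 windows.

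At Adra2a G9a was divided, with 3 regions higher in the first pair and 2 in the second. The region at the 3' end of the gene had 62 and 195 against 267 and 232 per the authors' deposited table (log2 0.95), without overlap; the difference was 0.35 without library 1 of the first pair and 1.99 without library 2 of it. The one 1792 bp after the start had 151 and 69 against 13 and 120 there, with overlapping pairs and the low value in library 1 of the second pair; without that library 2 of the 3 first-pair regions turned round.

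Few H3K9me2 regions were listed at the alpha-2 genes, which does not give the level of the mark there. Adra2b had no listed region. Adra2a had 1, which began 4658 bp before the start, with 180 and 180 against 158 and 16 per the authors' deposited table (log2 -1.04); the low value came from library 2 of the second pair, without which the difference was -0.19, and it was -3.41 without library 1. Adra2c had 3 in its flanks, of which the 900 bp one had 209 and 160 against 105 and 114 per the authors' deposited table (log2 -0.75) and lay inside H3K27me3 and G9a regions of the opposite direction.

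The alpha-1 genes had another pattern, with many short listed regions and no listed H3K27me3 region over most of the gene. Adra1a, an alpha-1 receptor gene active in heart muscle (gene 11549, chromosome 14, 66635251 to 66771240), is 135990 bp long. It had 30 G9a regions, 25 higher in the first pair and 5 in the second (44.5% of all G9a regions). Over the 25, the sums were 2922 and 3408 against 320 and 2319 over 16700 bp per the authors' deposited table. Library 1 of the second pair was at 0 in 13 of the 25, and in 12 of the 25 the pairs did not overlap (61.3% of all G9a regions). Without that library, 22 of the 25 were still higher in the first pair, and without library 2 of the second pair all 25 were. The sum of library 2 was nonetheless much nearer to the first pair than to its own partner.

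The Adra1a G9a region with the smallest p was 1150 bp long (66696301 to 66697450) and had 474 and 67 against 12 and 132 per the authors' deposited table (log2 -1.89), so it rests on library 1 of the first pair, without which it was 0.10. It was -1.03 without library 1 of the second pair and -4.38 without library 2 of that pair. Pairs that did not overlap were seen, for example, at 66741651 to 66742200 with 126 and 119 against 29 and 0, and at 66723151 to 66723700 with 83 and 117 against 24 and 36, per the authors' deposited table. The 5 second-pair regions all had overlapping pairs. Without library 2 of the second pair, limma called 15 Adra1a G9a regions and 3 at Adra1b, all higher in the first pair, at an adjusted p under 0.05; that fit rests on the library with many zeros and called 56515 regions of the table.

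**Figure D4:**
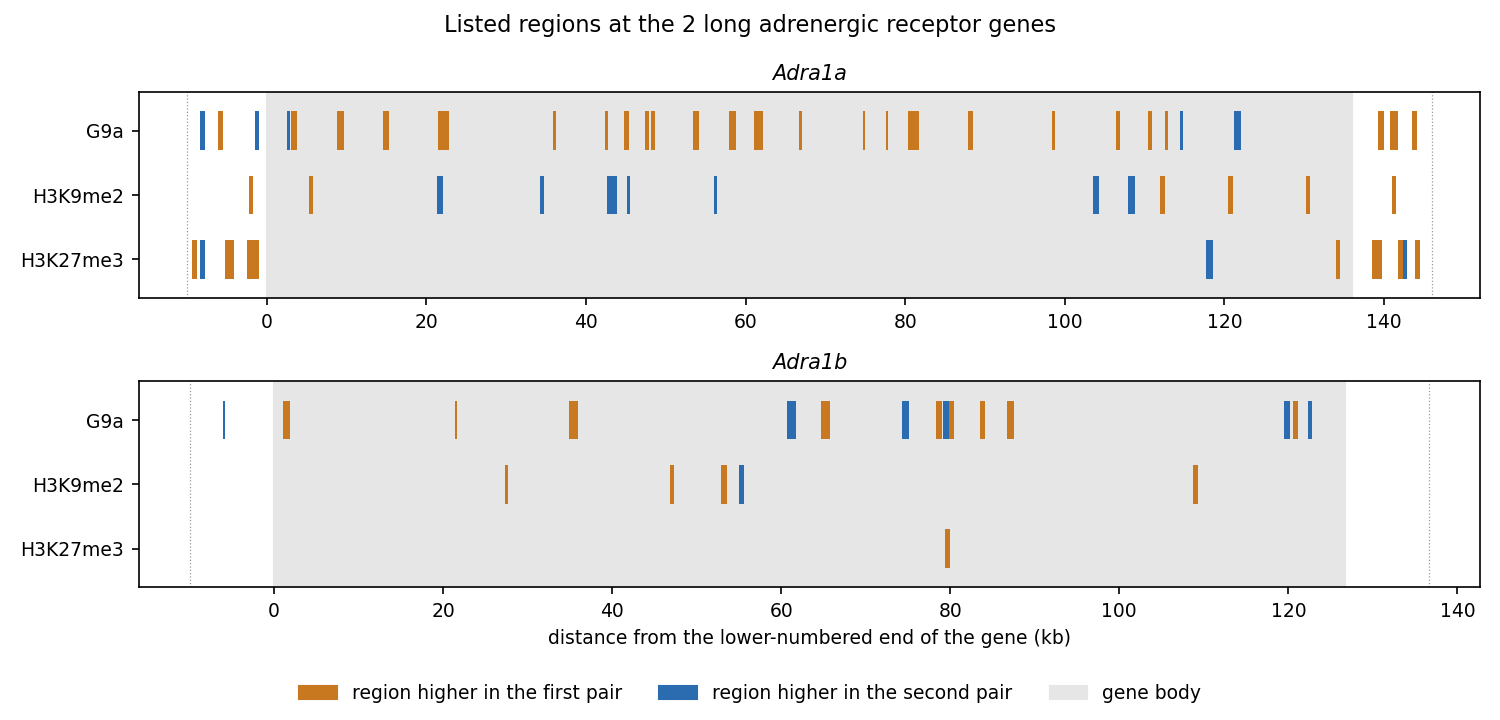
Position of all listed regions at Adra1a and Adra1b, in kb from the lower-numbered end of the gene (x axis), with a row for each antibody; grey marks the gene body, dotted lines the 10 kb limits, orange regions higher in the first pair and blue regions higher in the second. At Adra1a 25 of 30 G9a regions are orange and H3K9me2 regions of both colours are spread along the gene, while H3K27me3 regions lie mostly outside the gene body.

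H3K9me2 at Adra1a was divided, with 7 regions higher in the second pair, all inside the gene, and 6 higher in the first. The leading one, 750 bp long (66656651 to 66657400), had 80 and 15 against 168 and 114 per the authors' deposited table (log2 1.55, or 3.15 without library 1 of the first pair and 0.81 without library 2 of it). It lay over a first-pair G9a region (227 and 236 against 27 and 292, with overlapping pairs), and 3 of the 25 first-pair G9a regions overlapped such a second-pair H3K9me2 region. The first-pair H3K9me2 region at 66765501 to 66766000 had 95 and 87 against 48 and 25 per the authors' deposited table, without overlap. For H3K27me3, 8 of 10 regions lay in the flanks; the leading one began 2450 bp before the lower end of the gene and had 523 and 239 against 182 and 38 per the authors' deposited table (log2 -1.78). That difference was -1.11 without library 1 of the first pair, and -3.29 and -1.06 without libraries 1 and 2 of the second.

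Adra1b (gene 11548, chromosome 11, 43774605 to 43901250, minus strand in RefSeq) had 15 G9a regions, 9 higher in the first pair and 6 in the second (44.5% of all G9a regions). Its leading region, near the 3' end of the gene, had 192 and 245 against 5 and 117 per the authors' deposited table (log2 -1.82), the lowest value again being in library 1 of the second pair. Without that library the difference was -0.90 and 8 of the 9 regions were higher in the first pair, and without library 2 of the second pair the difference was -5.19. H3K9me2 regions numbered 5, of which 4 were higher in the first pair, and the leading one had 58 and 82 against 0 and 35 per the authors' deposited table (log2 -1.94, or -0.98 without the library at 0). Without the other library of that pair, the second pair is listed at 0 alone, so no fold is given. The single H3K27me3 region, deep inside the gene, had 112 and 114 against 44 and 59 there (log2 -1.12), without overlap.

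Adra1d (gene 11550, chromosome 2, 131545357 to 131562497) had no listed H3K9me2 region. Of its 9 G9a regions, 8 were higher in the first pair and 1 in the second (44.5% of all G9a regions). Of its 9 H3K27me3 regions, 5 were higher in the second pair (42.7% of all H3K27me3 regions) and 4 in the first. Most regions of both antibodies gathered at and beyond the higher-numbered end of the gene. The leading G9a region there had 160 and 158 against 28 and 81 per the authors' deposited table (log2 -1.53), and the leading H3K27me3 region, which began 8054 bp beyond that end, had 56 and 56 against 79 and 212 there (log2 1.36). In both the pairs did not overlap. The G9a difference was -0.96 without library 1 of the second pair and -2.46 without library 2, and the H3K27me3 one 0.49 without library 2. Short H3K27me3 regions of opposite direction alternated along this stretch, unlike the single long regions of the alpha-2 genes.

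Across the 8 genes, 26 of 41 second-pair G9a regions overlapped a second-pair H3K27me3 region, with 39450 bp shared, and 3 overlapped a second-pair H3K9me2 region, with 2500 bp shared, of which 1800 bp were at Adrb1. Of these 26, 10 were at Adra2b, 9 at Adra2c, 4 at Adrb3, 2 at Adra2a and 1 at Adra1a. The other 2 of these 3 lay in the flanks of Adra2c. In the other direction, 2 first-pair G9a regions, both at Adra1a, overlapped a first-pair H3K9me2 region, with 550 bp shared. First-pair G9a regions overlapped H3K27me3 regions of either direction: 11 of 51 overlapped a first-pair one, with 4450 bp shared, and 9 a second-pair one, with 6050 bp shared. Of the second-pair G9a regions, 3 overlapped a first-pair H3K27me3 region, with 1050 bp shared. The shares of overlap over all G9a regions were not taken, so these counts are a description only. H3K27me3 regions covered nearly all of the Adra2b and Adra2c windows, so most G9a regions there would overlap one wherever they lay.

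In the H3K9me2 table, the genes whose leading region was most like that of Adrb1 over the 4 libraries (Euclidean distance between log2(value + 1), centred on each region's mean; 16136 genes compared) were Adcy1 at 0.54, Mroh9 at 0.55, Srrm4 at 0.62, Serpine2 at 0.71, and Itih1 with Itih3 at 0.74, which share 1 region. At Adcy1, an adenylyl cyclase gene, the region lay just beyond the higher-numbered end and had 4 and 9 against 114 and 61 per the authors' deposited table (log2 3.56, -log10 p 17.5). At Serpine2, a protease inhibitor gene, it had 9 and 14 against 278 and 141 there (log2 4.07). All 5 regions had lower values than that of Adrb1 in each of the 4 libraries.

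The other genes of the pathway were 65 genes for noradrenaline handling, G proteins, cyclases, kinases and anchors, exchange factors, phosphodiesterases, receptor kinases and arrestins, the phospholipase arm and effectors. A G9a region higher in the second pair was listed at 55 of 65 (84.6%) and one higher in the first pair at 63 (96.9%), against the 73.2% and 89.1% of all genes given above. Several of these genes are very long, so more sequence was searched there. For H3K9me2 the counts were 43 and 54 of 65 (66.2% and 83.1%, with 52% and 64.7% of all genes), and for H3K27me3 50 and 55 (76.9% and 84.6%, with 69.7% and 79.9% of all genes). The median log2 differences of their regions were -0.84 for G9a, -0.59 for H3K9me2 and -0.41 for H3K27me3, where the whole tables had -0.67, -0.66 and -0.58. Without library 1 of the second pair the G9a median was -0.13, where the whole table had -0.06, and without library 1 of the first pair the H3K27me3 median was 0.24, where the whole table had -0.17.

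By smallest deposited p, the leading G9a regions of the pathway were at Th, the rate-limiting enzyme of catecholamine synthesis, Gnas, which encodes the stimulatory G protein subunit, the phosphodiesterase gene Pde2a and the exchange factor gene Rapgef3. All were higher in the second pair without overlap; that of Th, beyond the gene, had 317 and 738 against 1671 and 1218 per the authors' deposited table (log2 1.45), and that of Pde2a, over the lower end of the gene, 479 and 589 against 1679 and 1102 (log2 1.38). For H3K27me3 Pde2a led as well, with 3640 and 3220 against 6268 and 6061 per the authors' deposited table (log2 0.85), followed by the cyclase genes Adcy4 (0.66) and Adcy1 (1.17) and the protein kinase C gene Prkcb (0.93). For H3K9me2 the leading regions were at Grk5, a kinase that desensitises beta receptors, with 599 and 653 against 1280 and 1512 per the authors' deposited table (log2 1.16), and at Adcy2 (1.95), Prkce (2.40) and Plcb1 (3.24), all inside long genes.

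Of Pln, Ryr2, Cacna1c, Cacnb2 and Hcn4, a second-pair H3K27me3 region was listed at 2 of 5 (69.7% of all genes) and a first-pair one at 3 of 5 (79.9%). The tables hold no RNA, so the label cardiomyocyte could not be checked by expression. Of 7 cardiomyocyte markers such as Myh6 and Tnnt2, 3 had no listed H3K27me3 region. A second-pair region was listed at 2 (69.7% of all genes) and a first-pair one at 3 (79.9%). Of 22 markers of other cells (leukocytes, endothelium, fibroblasts, smooth muscle and pericytes, sympathetic neurons), 20 had a G9a region (73.2% of all genes) and 21 an H3K27me3 region (69.7%) higher in the second pair, and 22 (89.1%) and 20 (79.9%) had one higher in the first. Summed over their listed regions, G9a came to 39954 and 49997 against 77345 and 65078, and H3K27me3 to 138130 and 122638 against 184514 and 159848, per the authors' deposited tables. The G9a sums of the cardiomyocyte markers, 3388 and 5751 against 6438 and 6106, were higher in the second pair as well. By region, 30 of theirs were higher in the first pair and 21 in the second, with a median log2 difference of -0.81. That median was 0.1 without library 1 of the second pair and -1.5 without library 2. For the markers of other cells, 134 G9a regions were higher in the first pair and 231 in the second, with a median of 0.83. With each library left out in turn it was 0.47 to 0.81. Of their H3K27me3 regions, 196 were higher in the first pair and 209 in the second. The median was 0.42, and 0.02 to 0.24 with each library left out. It was -0.53 for endothelium and -0.63 for leukocytes. For fibroblasts it was 0.49, for smooth muscle and pericytes 0.5 and for sympathetic neurons 0.63. Whole-table sums were 36881071 and 44672116 against 41922229 and 48327896 for G9a and 124198535 and 112764904 against 143213031 and 121358984 for H3K27me3, so their pair means go the same way. By count, 44.5% of all G9a regions and 42.7% of all H3K27me3 regions were higher in the second pair. The part of other cell types in the receptor differences was not tested.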

How the data were processed

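The submitters' processing notes name BWA 0.7.10-r789, SAMtools 1.1 and the build mm10 (GRCm38); for the region caller, its scaling and its use of inputs they are silent, and these steps remain unknown here. For each antibody the authors deposited a headerless table, whose column 11 holds 4 whole-number values and a -log10 p per region. They were not treated as raw counts, and no count model was run. The values are written as 2 pairs, and the sign in column 6 matched the higher pair in every line. Libraries therefore stand as 2 unnamed pairs, and the input libraries were not used here.

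Regions on chromosomes 1 to 19, X and Y were kept and matched to RefSeq genes (GRCm38.p6) with 10000 bp either side. limma 3.58.1 (R 4.3.3) was fitted to log2(value + 1) of all regions of a table, unscaled, with Benjamini-Hochberg adjustment. Simulated data were also fitted, with large changes and a fixed spread below that of most leading G9a and H3K9me2 regions at the receptors. That run does not show how often differences like those here would be called by limma. Since the regions had been selected by the authors for a difference, its p-values describe selected regions only. The limma p-values measure only the spread between these libraries. How the deposited p weighs the spread within a pair is not given. The Adra1a G9a region with 474 and 67 against 12 and 132 had a deposited -log10 p of 26.0. Its unadjusted limma p was 0.246. Alternatives were other windows, a deposited p of 0.001, a minimum mean of 50, a pseudocount of 10, equal medians and leaving out each library; medians of log2 differences with each library left out were added after seeing the data. The members, the pathway list, the markers and the motifs were chosen with earlier results of these data known. All 8 receptors were described, with their regions of smallest deposited p, the 5 genes most like Adrb1 and 4 pathway genes per table; further regions were chosen after their values were seen.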

Additional observations from a re-analysis of the deposited data

How the results depend on the processing

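The window sets the counts most. For regions higher in the second pair, 41 for G9a became 16 with the gene body alone, 25 with 2500 bp and 77 with 25000 bp either side, and 22 for H3K27me3 became 5, 10 and 58. For regions higher in the first pair, 18 for H3K27me3 became 3, 6 and 36, and 12 for H3K9me2 became 23 with 25000 bp. With a deposited p of at most 0.001, 11 second-pair H3K9me2 regions became 6. Other windows and filters stayed within 1.5 times. Leaving out each library in turn gave 34 to 48 second-pair and 44 to 58 first-pair regions for G9a, 10 to 12 and 11 to 12 for H3K9me2, and 20 to 25 and 15 to 20 for H3K27me3. Equal medians, for these counts an alternative added after seeing the data, moved the median of all regions by 0.29, 0.18 and 0.29 on the log2 scale (G9a, H3K9me2 and H3K27me3) and left 41, 11 and 23 second-pair regions.

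limma called 0 receptor regions in all 3 tables under each alternative but one: without library 2 of the second pair, 18 G9a regions were called (15 at Adra1a and 3 at Adra1b, all higher in the first pair), in a fit that rests on library 1 of that pair, assumed to vary like the others, and that called 56515 regions of the table; leaving out libraries thus gave 0 to 18 calls for G9a. Of 120 alternative values of the 20 leading log2 differences, 99 moved by less than 1 SD of the replicates, 19 by more, and 2 changed sign: Adrb3 for G9a without library 2 of the second pair (-0.26, and up to 2.18 without other libraries) and Adra1a for G9a without library 1 of the first (0.10, and down to -4.38 without others). The SD used is each region's own, from 2 libraries per pair, so it is wide where libraries disagree. For G9a at Adrb1 it was 1.31, and a move from 1.75 to 0.97 stayed within it. The 99 are thus not a measure of robustness. No paired analysis was possible because the columns of the tables carry no replicate numbers. Unknown depth limits every value.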

Other observations

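Adcy1 is the adenylyl cyclase gene whose leading H3K9me2 region was most like that of Adrb1 in its pattern over the libraries, at lower values. It also had an H3K27me3 region over its lower end that was higher in the second pair. That region had 1917 and 877 against 3298 and 2977 per the authors' deposited table (log2 1.17). The gene is 115074 bp long and the H3K9me2 region lay just beyond its other end, so these regions were far apart. Of 9 adenylyl cyclase genes, 9 had a second-pair G9a region (73.2% of all genes) and 9 a first-pair one (89.1%), with 137 and 126 regions; for H3K27me3 it was 8 (69.7%) and 9 (79.9%), with 217 and 159 regions. The median log2 difference over these regions of both directions was 0.59 for H3K27me3, and 0.26 to 0.53 with each library left out. For G9a it was 0.56. Without libraries 1 and 2 of the second pair it was 0.16 and -0.16, and without those of the first 0.11 and 0.39. It is thus not stable. For the 5 effector genes the G9a median was -1.09, or -0.42 without library 1 of the second pair, whose values summed to 2248 beside 9321 in library 2, and -3.44 without library 2.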
